A study of Mus musculus with 2 samples.

Results

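The core circadian clock loop was described in the gastrocnemius, a calf muscle, of mice with and without depletion of PDGFRα-positive mesenchymal progenitors. The loop was taken as 10 genes chosen by name: Arntl, Clock, Npas2, Per1, Per2, Per3, Cry1, Cry2, Nr1d1 and Nr1d2. A probe carries the symbol of 9 of them, out of 19321 genes named on the array, and Per2 was not analysed here. Each group was 1 array of 1 female mouse aged 10 weeks. The depleted mouse carried Pdgfra-CreER and R26-DTA, so that, with tamoxifen, Cre acts in cells that use the Pdgfra promoter and turns on diphtheria toxin A, which kills them. The control was a wild-type littermate carrying R26-DTA without the Cre. Both received tamoxifen from 9 weeks of age on 5 days, and the muscle was taken and frozen 2 days after tamoxifen ended. The hour of the day at which muscle was taken is not given in the sources used here. With 1 animal a group there is no replicate check, no p-value and no spread between animals, and genotype and animal cannot be told apart.

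The mammalian clock is a feedback loop of transcription. BMAL1, the product of Arntl, pairs with CLOCK or its paralog NPAS2, binds E-box sequences and switches on the Per, Cry and Nr1d genes. PER and CRY proteins return to the nucleus and hold the pair back, and the REV-ERB receptors made from Nr1d1 and Nr1d2 repress Arntl through ROR elements, where ROR receptors activate it. In mouse tissues, skeletal muscle among them, Arntl transcript is known to peak at about the opposite time of day to the transcripts of Nr1d1, Dbp and Per3. The muscle clock is known for timing glucose and lipid use.

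Both arms of the loop had a member that was higher on the depleted array. Arntl, of the positive arm, was 3.14-fold higher and Nr1d1, of the repressor arm, 2.04-fold higher. Per3 lay lower, at a log2 ratio of -0.56, and Clock higher, at 0.45. Per1, Cry1, Cry2 and Npas2 lay within 0.05 of a log2 ratio of 0. Thus 2 of 9 members were at least 2-fold higher, against 0.492% of the 18498 genes compared, and 0 of 9 were at least 2-fold lower, against 0.427% (0.919% of all genes in either direction). The median log2 ratio of the 9 members was 0.02, or 0.26 with scaling to the median (all genes -0.0036). The genes were chosen with such results known, so these shares describe the members and test nothing.

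Sequence at the start sites is shown for the members that differed most (Arntl, Nr1d1 and Per3), for Per1, which did not differ in this way, and for Dbp, the output gene with the lowest ratio. Per3 was added after its values were seen. The windows come from RefSeq's GRCm38.p6 annotation, which held all 9 measured members, and run from 250 bases before to 50 bases after a start site. The lines below give the 250 bases before it, 5′ to 3′ on the gene's strand, with matches to the full motifs in capitals and the short core AGGTCA, in either direction, left in lower case unless it lies within a full motif. They lie at chr7:113207215-113207464 (plus strand, the more upstream of 2 Arntl starts), chr11:98775378-98775627 (minus, Nr1d1), chr4:151044666-151044915 (minus, Per3), chr11:69098699-69098948 (plus, the more upstream of 2 Per1 starts) and chr7:45704997-45705246 (plus, Dbp). The ROR element of Arntl, at chr7:113207528-113207557 (plus), is given as 30 bases around the match, which begins 28 bases into the transcript from the second start.
Arntl ROR element: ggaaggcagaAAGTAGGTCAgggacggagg
Arntl: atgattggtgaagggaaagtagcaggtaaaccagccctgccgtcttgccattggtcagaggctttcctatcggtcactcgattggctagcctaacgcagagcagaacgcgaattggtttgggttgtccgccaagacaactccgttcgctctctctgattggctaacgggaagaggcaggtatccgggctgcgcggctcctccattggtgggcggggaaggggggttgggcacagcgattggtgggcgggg
Nr1d1: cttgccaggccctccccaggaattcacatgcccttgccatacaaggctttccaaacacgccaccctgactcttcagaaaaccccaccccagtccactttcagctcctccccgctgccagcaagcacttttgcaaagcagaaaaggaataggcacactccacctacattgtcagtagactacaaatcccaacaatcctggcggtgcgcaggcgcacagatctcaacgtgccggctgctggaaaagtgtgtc
Per3: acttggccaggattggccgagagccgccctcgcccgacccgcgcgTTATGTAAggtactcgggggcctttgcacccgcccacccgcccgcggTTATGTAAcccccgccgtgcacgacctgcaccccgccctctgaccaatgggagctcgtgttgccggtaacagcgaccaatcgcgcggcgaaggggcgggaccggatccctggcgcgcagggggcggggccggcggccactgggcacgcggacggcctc
Per1: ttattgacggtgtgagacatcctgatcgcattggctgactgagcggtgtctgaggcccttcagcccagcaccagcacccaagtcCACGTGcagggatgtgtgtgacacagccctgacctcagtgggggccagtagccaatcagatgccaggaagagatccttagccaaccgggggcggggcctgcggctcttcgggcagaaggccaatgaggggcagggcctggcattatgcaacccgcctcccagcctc
Dbp: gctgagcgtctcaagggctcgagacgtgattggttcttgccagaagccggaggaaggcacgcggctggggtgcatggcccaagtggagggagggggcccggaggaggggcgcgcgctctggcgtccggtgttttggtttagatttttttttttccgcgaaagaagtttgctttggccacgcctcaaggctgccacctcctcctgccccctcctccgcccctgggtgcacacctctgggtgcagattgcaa

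The motifs searched in the 300-base windows, on both strands, were the E-box CACGTG, which reads alike on both strands, the D-box TTATGTAA or TTACGTAA, which DBP, TEF and HLF bind, the ROR element, which is TAGGTCA preceded by AAN and contains the core AGGTCA, the cAMP element TGACGTCA and the glucocorticoid element, which is GNACA and TGTNC with 3 bases between them. Of the 9 members, 2 held an E-box, Per1 (166 bases before its start) and Cry1 (60 bases before), against 8.09% of all genes with a window. Per3 alone held the D-box, with a pair of copies starting 205 and 158 bases before its start (1.23% of all genes). Arntl alone held the ROR element (0.259%). The core AGGTCA was found in 4 members, Arntl, Clock, Nr1d2 and Per1 (18.1%). No member held the cAMP element (2.03%) or the glucocorticoid element (0.537%). The windows printed for Nr1d1 and Dbp held none of these letters, which says nothing of binding elsewhere. A match is a description of sequence only.

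Values are given on 3 scales. Scanned intensities are the spot medians in the Cy5 channel, on which blank spots averaged 36.3 (control) and 37.0 (depleted). Processed intensities are the authors' own values, which are the scanned value minus the blanks, times a factor for each array. Log2 ratios are depleted over control after background correction with an offset of 50 and quantile normalization. That offset compresses the ratios of genes with low signal. The genes were therefore split by mean intensity into 4 brightness classes of equal size. Of the dimmest class, 0% passed 2-fold (5.47% in processed values), and of the brightest 3.16% (4.69%). A gene's ratio was set beside the central 95% of ratios in its own class. This range ran from -0.06 to 0.07 in the dimmest class, from -0.45 to 0.52 in the third and from -0.81 to 0.85 in the brightest. Outside it lay 3 of the 9 members, Arntl and Nr1d1 above and Per3, by its brighter probe, below. The loop was not alone in this. Of the lists described further on, 2 of 9 outputs and 0 of 18 regulators lay outside. So did 3 of 11 other rhythmic genes and 6 of 12 genes that answer to resetting signals.

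In the positive arm, Arntl, whose protein BMAL1 the loop cannot run without, had scanned intensities of 74.8 in control and 333 in depleted muscle (probe M200003070). The processed intensities were 49.0 and 278.1, a 5.68-fold difference. The log2 ratio of 1.65 was the 22nd highest of 18498 genes. Both intensities stood above the background limit of 37.4 and 38.5, which is the mean of the blanks plus 2 SD. The scanner's local background column read 363 around this spot on the depleted array, more than the spot itself, as for 1.42% of all probes on that array. It did so for 1 of the 10 member probes on the depleted array and 0 on the control array. Over all probes the column rose with the spot's own intensity (Spearman correlation 0.94 on the control and 0.97 on the depleted array). It therefore cannot be read as a background independent of the signal. With that column subtracted, the Arntl ratio turned to -2.86, a value set by the floor given to spots at or below their local background. In the 9 other alternatives the ratio was positive and at least 2-fold, from 1.64 to 2.50. Those that changed only the background filter or averaged a gene's probes could not move it, as Arntl has 1 probe above background on both arrays.

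Clock, the DNA-binding partner of BMAL1, had processed intensities of 69.9 in control and 117 in depleted muscle, 1.67-fold apart. Its log2 ratio of 0.45 was inside the central range of its class and below 2-fold in all alternatives run (highest 0.92, with the local background subtracted). Npas2, which can stand in for Clock, was near the blanks on both arrays, at scanned intensities of 39.9 and 43.6. At this signal its processed values of 4.7 and 6.2 allow no statement on a difference, and the sign of its ratio (0.04) turned with scaling to the median (-0.04) and with the local background subtracted (-0.22). The ratio of Arntl exceeded that of Clock by 1.20 on the log2 scale. In the processed values, where an array-wide factor cancels, the difference was 1.76. In the 1.20 such a factor need not cancel, because of the offset and the quantile step. Without local background subtraction the difference lay between 1.18 and 1.76.

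**Figure D1:**
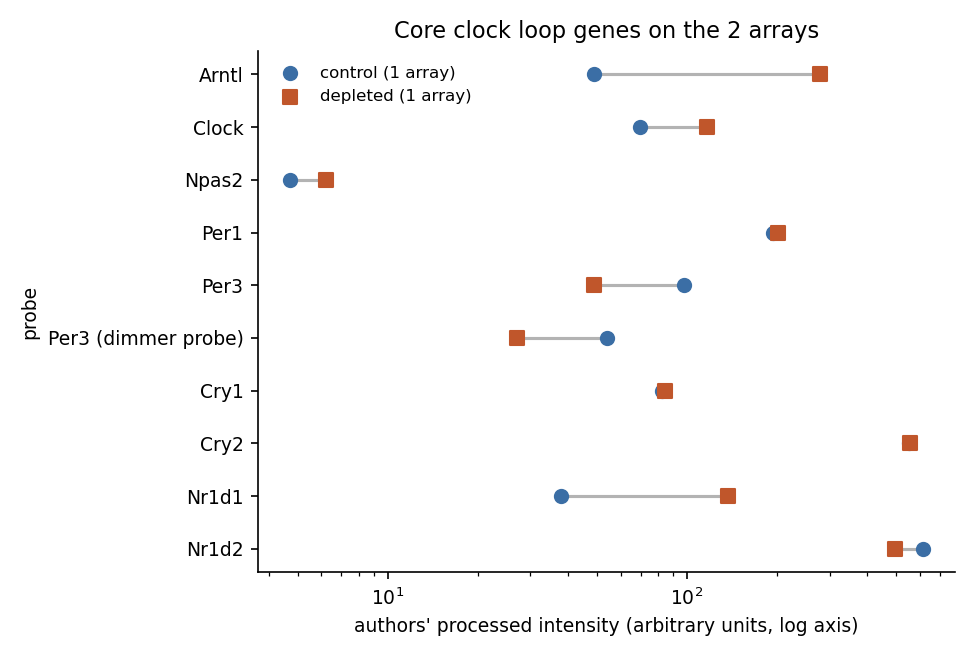
Authors' processed intensity (arbitrary units, log axis) of the 10 probes of the 9 measured clock loop genes on the control array (circles) and the depleted array (squares), 1 array each, joined by a line. Arntl runs from 49.0 to 278.1 and Nr1d1 from 37.9 to 137.3, both probes of Per3 run the other way, and the points of Per1, Cry1 and Cry2 lie nearly on each other.

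Among the repressors of the first loop, Per3 was lower on the depleted array with both of its probes. Its brighter probe (M400013831) had processed intensities of 97.5 in control and 48.8 in depleted muscle, and the dimmer one (M200002977) 54.0 and 27.0. Control muscle was thus 1.998-fold higher by the first probe and 2-fold by the second. The log2 ratios were -0.56 and -0.41. Only the first lay outside the central range of the gene's brightness class (-0.45 to 0.52). With scaling to the median the brighter probe was at -0.43. The probes thus differed by less than 0.40, the 95th percentile of the difference between 2 probes of a gene in this brightness class (409 pairs, median 0.11). By its brighter probe, Per3 came to 2-fold with the blank spots subtracted (-1.02) and with the local background subtracted (-2.20). The dimmer probe did not go with the second of these. Its scanned intensity was 78.7 over a local background of 72.9 in control muscle. In depleted muscle it was 65.7 over 56.3, so it stood farther above its local background there.

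Per1, the period gene that also responds to acute signals, had processed intensities of 194.5 in control and 201 in depleted muscle. Its log2 ratio was 0.02. Cry1, the main cryptochrome repressor of the loop, had 82.6 and 84.6, and its log2 ratio was 0.01. Cry2, its paralog, had 554.8 and 558, and its log2 ratio of -0.02 became 0.28 with scaling to the median. For these 3 genes the arrays nearly coincide in processed values. With 1 animal a group, no interval can be put on any of these differences. With the local background subtracted, Cry1 was at 1.498.

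In the second loop the ratios of the REV-ERB genes differed from each other. Nr1d1, which encodes REV-ERBα, a repressor of Arntl, had scanned intensities of 66.1 in control and 183 in depleted muscle (probe M200012251). Its processed intensities were 37.9 and 137.3, 3.62-fold apart, and its log2 ratio of 1.03 was the 88th highest. The ratio stayed at or above 2-fold in all 10 alternatives, from 1.03 to 2.94. As for Arntl, those that changed only the background filter or averaged a gene's probes could not move it. Nr1d2, which encodes REV-ERBβ, had processed intensities of 616.1 and 497.9 and a log2 ratio of -0.31, inside the central range. It was at -0.01 with scaling to the median and at -1.81 with the local background subtracted. The ratios of Nr1d1 and Nr1d2 differed by 1.34 on the log2 scale, and by 2.16 in the processed values. Across the alternatives without local background this difference lay between 1.17 and 2.19.

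Nr1d1 and Arntl were both higher, and the difference between their ratios, 0.62, lay between 0.61 and 0.67 under every alternative run without local background subtraction. By this setting Arntl and Per3 lay farther apart than any other pair of members, by 2.21. Every member but Per3 was measured by 1 probe, so most ratios have no second probe to set beside them.

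**Figure D2:**
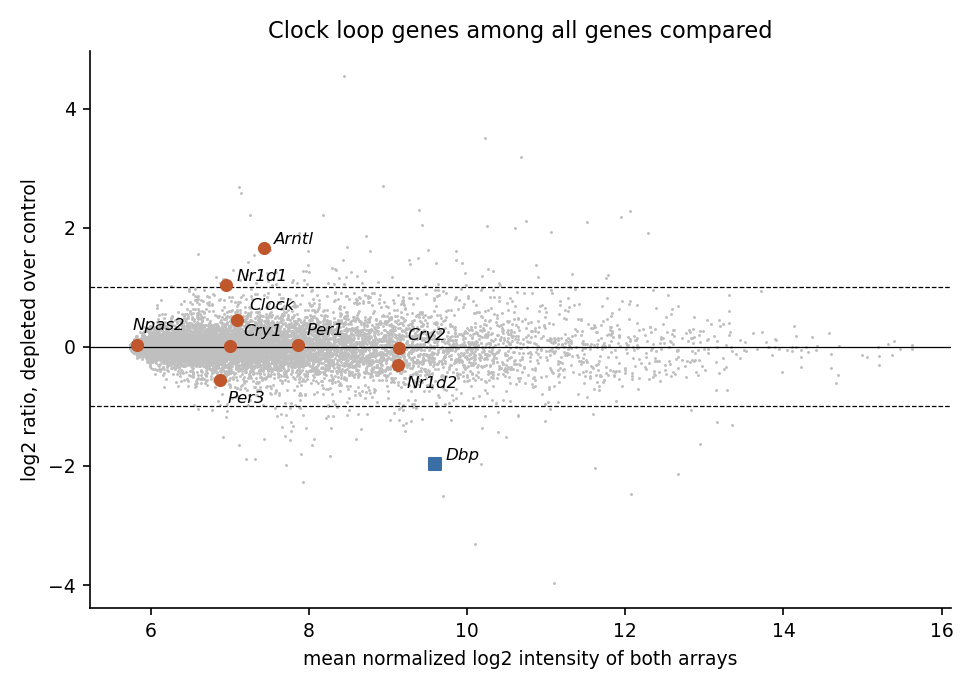
Log2 ratio (depleted over control) against mean normalized log2 intensity for the 18498 genes compared (grey), with the 9 clock loop genes (circles) and the output gene Dbp (square). Dashed lines mark 2-fold; Arntl and Nr1d1 lie above the upper line, Dbp lies below the lower one, and the spread of all genes narrows toward low intensity.

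The genes that the loop drives, or that feed back on it, were followed in 9 measured genes. Of these, 2 were higher and 7 lower (4 and 5 with scaling to the median), with a median of -0.06, and 1 of 9 was at least 2-fold lower. Of all genes, 52.4% were lower and 0.427% at least 2-fold lower. Dbp, a transcription factor that BMAL1 drives and that acts on D-boxes, had processed intensities of 1572.5 in control and 374.1 in depleted muscle, 4.20-fold apart. Its log2 ratio of -1.96 was the 10th lowest. The ratio was 3.61 below that of Arntl. Local background also exceeded the spot here on the depleted array (441 against 436), and subtracting it gave -8.34, again set by the floor.

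Tef and Hlf, the relatives of Dbp, were not 2-fold apart. Tef had processed intensities of 875.4 and 754.5 (log2 ratio -0.24, and 0.08 with scaling to the median). Hlf was dim, at 11.3 and 8.7 (-0.06). Nfil3, a repressor that competes for D-boxes, had 306.5 in control and 457.1 in depleted muscle (0.47). Rora, which activates Arntl through ROR elements, was higher with both of its probes. Their processed intensities were 390.9 and 780 for the brighter and 374.8 and 745.7 for the dimmer, and their log2 ratios 0.88 and 0.87. Rora passed 2-fold with scaling to the median (1.17) and turned to -5.80 with the local background subtracted.

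The other outputs lay close to 0. Bhlhe40, a repressor of E-box genes, was at -0.10 (0.16 with scaling to the median), Ciart, a repressor of the CLOCK and BMAL1 pair, at -0.08, Bhlhe41 at -0.02 and Rorb at -0.02. Rorb and Bhlhe41 were near the blanks, at processed intensities of 9.2 and 8.3 for Rorb and 3.3 and 2.4 for Bhlhe41. An E-box stood in 3 of the 8 outputs that had a window: Ciart, Bhlhe41 and Tef, the last in both of its windows (8.09% of all genes with a window). Hlf held the cAMP element (2.03%), and Nfil3 the core AGGTCA (18.1%).

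Of 22 listed regulators of the clock proteins, 18 were measured, and 13 were higher and 5 lower, with a median of 0.13. With scaling to the median 15 were higher and 3 lower, with a median of 0.34. Of all genes 52.4% were lower, and 54.5% with that scaling. The scaling also moved the 2-fold calls over all genes, from 79 lower and 91 higher to 38 and 216. At least 2-fold apart were 0 of 18, against 0.919% of all genes, so few would be looked for in a list of this size. The kinases Gsk3b and Dyrk1a were at 0.39 and 0.37. Timeless, a partner of the period and cryptochrome proteins, was at 0.30, Cipc, an inhibitor of CLOCK, at 0.29, Ddb1, a ubiquitin ligase adaptor, at 0.28 and Nampt, which makes an NAD precursor under clock control, at 0.28. All 18 lay inside the central range of their brightness class.

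A further list held 15 genes that cycle in many mouse tissues, of which 11 were measured. Of these 7 were lower and 4 higher, against 52.4% of all genes lower, with a median of -0.23 (-0.08 with scaling to the median). Tfrc, the transferrin receptor, was at -1.54, the deubiquitinase Usp2 at -0.86, Cirbp, an RNA-binding protein of the cold response, at 0.81, the tetraspanin Tspan4 at -0.59, the cell cycle kinase Wee1 at -0.44 and the lactate transporter Slc16a1 at -0.35. Tfrc was the only one at least 2-fold apart (0.919% of all genes), and Wee1 was 3.15-fold lower in the processed values (34.7 and 11.0).

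Glucocorticoids and acute stimuli are known to reset the clock through Per1, and 12 of 13 listed genes that answer to them were measured. Of these 8 were higher and 4 lower (10 and 2 with scaling to the median), against 52.4% of all genes lower (54.5%). The median was 0.57 (0.86 with that scaling). At least 2-fold higher were 3, against 0.492% of all genes. The number was 5 in the authors' processed values (2.83% of all genes), with the blanks subtracted (503 of all 18498 genes) and with an offset of 16 (163). It was 4 with scaling to the median (216 of all genes) and 6 with the local background subtracted (1940). The 3 were the immediate early genes Egr1 (2.22) and Fos (1.15) and the stress gene Ddit4 (1.39). Fos turned to -2.76 with the local background subtracted. On the depleted array its spot (184.7) was less than 1 above its local background (184.3), so it took the floor. The glucocorticoid target Fkbp5 was at 0.88, Junb at 0.79 and Errfi1 at 0.63. The 4 lower genes were Nr4a1 (-0.45), Sgk1 (-0.29), Tsc22d3 (-0.23) and Crem (-0.06). Crem was near the blanks (processed intensities of 6 and 3.4), so its sign allows no statement. With scaling to the median Sgk1 was at 0.03 and Tsc22d3 at 0.11. Nr4a1 stayed lower there (-0.13) and in every other alternative, so the list did not move as 1 by this gene alone. Per1 itself was at 0.02. Whether any of these signals acted on the clock genes was not tested.

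**Figure D3:**
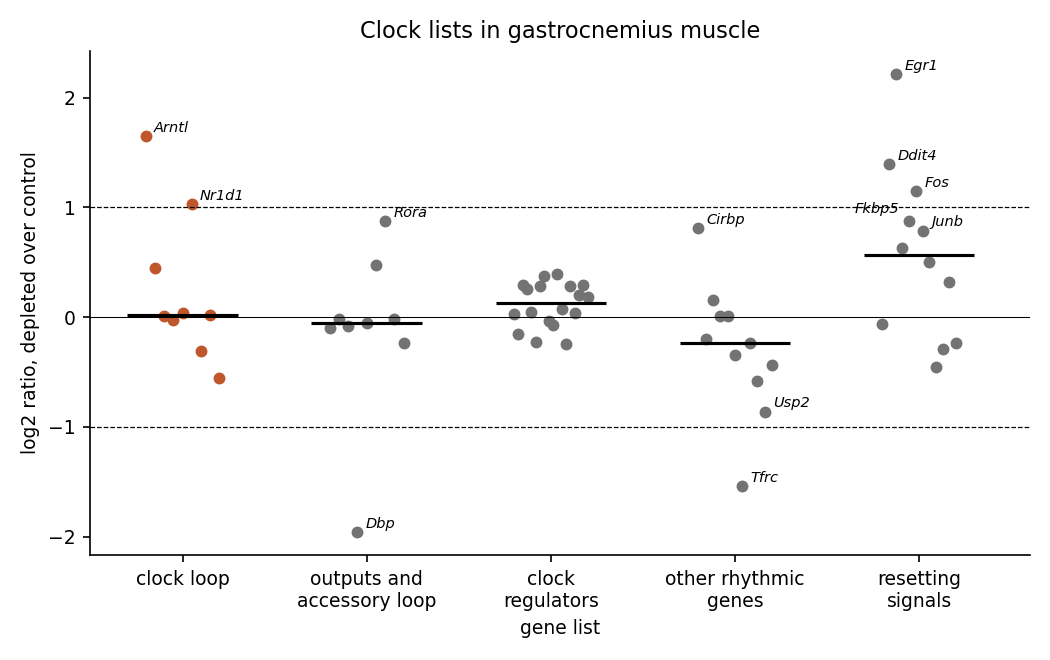
Log2 ratio (depleted over control) of every measured gene of the clock loop (9), its outputs and accessory loop (9), clock regulators (18), other rhythmic genes (11) and genes that answer to resetting signals (12); each point is a gene, black bars are medians (0.02, -0.06, 0.13, -0.23 and 0.57) and dashed lines mark 2-fold. Tsc22d3 is drawn in the last 2 lists; Arntl and Nr1d1 stand above 2-fold in the loop, and Dbp stands below it among the outputs.

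Over all genes, 79 were at least 2-fold lower and 91 higher. Scaling to the median gave 38 and 216, and the authors' processed values 345 (1.87%) and 523 (2.83%). In those processed values the members counted the same, 2 of 9 higher and 0 lower, with Per3 just short of 2-fold on its brighter probe. In bulk muscle, fewer cells of a type and less RNA per cell cannot be told apart. All 7 myofibre markers listed were measured, with log2 ratios from -0.43 to 0.04 apart from Pvalb (-1.25), a median of -0.16 and a summed processed intensity of 282051 in control and 195547 in depleted muscle. In 3 alternatives 7 of 7 were lower, with medians of -0.53 in the authors' processed values, -0.66 with cyclic loess and -0.22 with scaling to the median. Mesenchymal progenitor markers were lower in 8 of 8 measured, from -1.84 to -0.46, with a summed processed intensity of 8756 in control and 5055 in depleted muscle. Pdgfra itself was at -0.94. Macrophage markers had log2 ratios from 0.0039 to 1.22 (summed 2478 and 5575). Most of that sum was Lyz2 (1732.3 and 4337.4), while Csf1r had 132.7 and 134.5 and Adgre1 was dim (10.1 and 16). Endothelial markers had log2 ratios from 0.04 to 0.40 (summed 325 and 418), and erythroid markers were lower in 4 of 4 (summed 31758 and 5714). Cdh5, the lowest of the endothelial markers, was near the blanks (processed intensities of 4.7 and 6.6) and at -0.03 with scaling to the median. With the local background subtracted, 3 of 4 endothelial and 3 of 6 macrophage markers were lower. Among the latter was Lyz2 (-7.38), whose depleted spot lay below its local background (4658 against 5363) and took the floor. No defining marker was without a processed value on either array. The part of these cell types in the clock gene values was not tested.

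**Figure D4:**
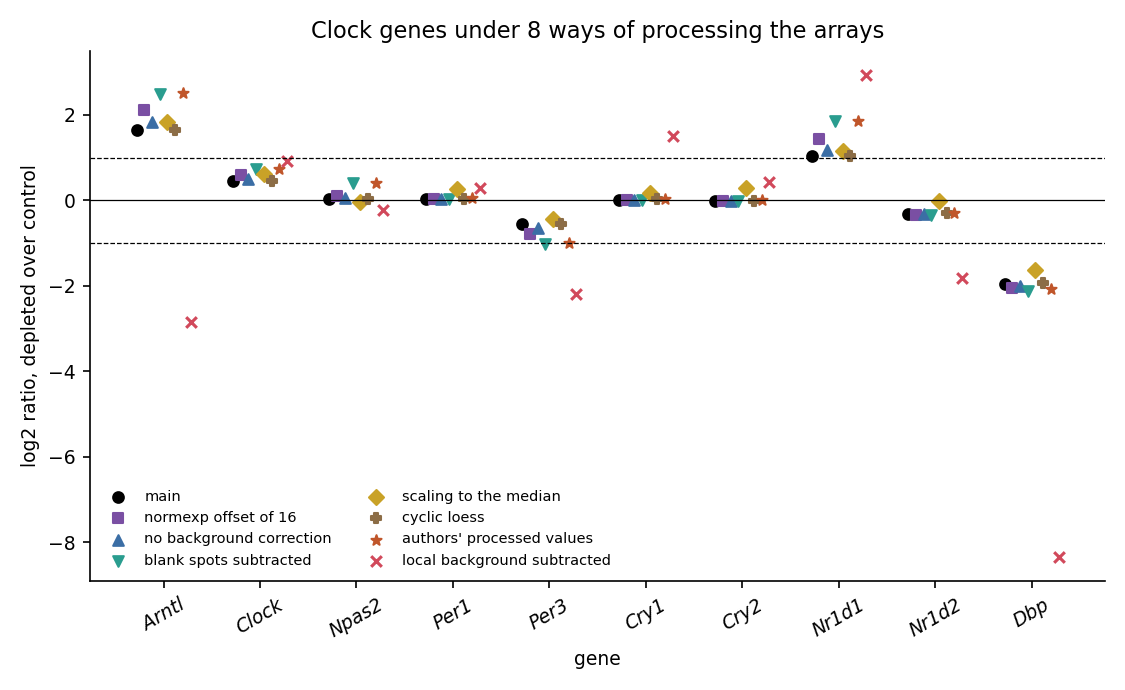
Log2 ratio (depleted over control) of the 9 clock loop genes and Dbp under 8 ways of processing the 2 arrays, 1 symbol for each; dashed lines mark 2-fold. With local background subtracted (crosses) Arntl turns to -2.86 and Dbp is at -8.34, and in the other 7 Arntl, Nr1d1 and Dbp keep their direction past 2-fold.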

How the data were processed

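RNA was amplified, coupled to Cy5 and hybridised to 1-colour arrays, 1 for each mouse, per the labels' protocols. The deposited scanner files hold spot intensities (median pixel at 635 nm, linear, joined by the authors from 3 scan gains, with no background subtraction), per the file headers. The authors' second deposited table holds processed intensity values. Set against the scanner values they are linear (control: the spot minus 36.2, times 1.27; depleted: the spot minus 37.0, times 0.939), with a median of 25 on both. Spots near the blanks are empty there, and scale, centring and direction are thereby known. No scanner, software or genome build is named in the labels or headers used here.

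Spots were corrected with normexp (limma 3.58.1, R 4.3.3, offset 50), log2-transformed and quantile-normalized (23473 probes). Control spots were left out after the correction. Probes took their gene from the platform annotation (20690 with 1 symbol, 0 with several, 2783 with none). All 10 member probes matched RefSeq by Entrez gene, with 0 symbols changed. The brightest probe stood for a gene. Above background means over the mean of the blanks plus 2 SD, which held for 92.6% (control) and 92.8% (depleted) of probes. Genes above it on at least 1 array were compared (18498), and an array below it took its lowest value above it. All 9 measured members were above it on both arrays. The number of arrays limits the precision, and no test was possible. Code was tested on simulated data. Python 3.11.15, numpy 2.4.6, pandas 2.3.3 and matplotlib 3.10.9 were used.

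The members, lists and alternatives were chosen with earlier results of these data known. The rule names every measured member and output gene and up to 6 genes, by size of the ratio, of each of the other 3 clock lists. The lower genes of the resetting list were added after their values were seen. Genes most like a member in pattern were not named, since over 2 arrays a pattern is the ratio alone. The alternatives were an offset of 16, no correction, subtraction of the blanks or of the local background (floored at 1), cyclic loess, scaling to the median, use of the authors' processed values, 2 other filters, the mean of a gene's probes, and thresholds of 1.5-fold and 3-fold.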

Additional observations from a re-analysis of the deposited data

How the results depend on the processing

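No paired analysis was possible because there was a single array for each genotype, and for the same reason no array could be left out. Of 90 member ratios under 10 alternatives, 85 kept their side of 2-fold, 4 passed it and 1 reversed. Part of this was fixed in advance. The 2 other filters could change no member, as all 9 were above background on both arrays. The mean of a gene's probes could change only Per3, since every other member had 1 probe. Subtraction of the local background put Arntl at -2.86, Rora at -5.80, Per3 at -2.20 (brighter probe only), Cry1 at 1.498 and Nr1d2 at -1.81. Arntl and Rora had spots below their local background on the depleted array, and so took the floor. Subtraction of the blanks put Per3 at -1.02. Members at least 2-fold lower were 1 with the blanks subtracted and 3 with the local background subtracted, against 0. Members at least 2-fold higher were 1 at a threshold of 3-fold, against 2. The medians of the 5 clock lists moved by less than 1.5-fold under every alternative run. Over all genes, lower and higher calls (79 and 91) were 360 and 503 with the blanks subtracted, 2021 and 1940 with the local background subtracted, 345 and 523 in the authors' processed values, 38 and 216 after median scaling, 282 and 363 at 1.5-fold and 17 and 27 at 3-fold, and an offset of 16 gave 163 higher. Thresholds act by construction; for the others the cause was not tested. Low signal over background limits Npas2, Hlf, Rorb, Bhlhe41 and Crem.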
